A study of Mus musculus with 38 samples.

Results

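Fatty acid synthesis turns surplus glucose carbon into fat, and 9 genes of this route were followed in the brown adipose tissue of mice kept on a low fat or a high fat, high sucrose diet. The genes were Fasn, Acaca, Acacb, Acly, Me1, Thrsp, Pnpla3, Aacs and Acss2. They were chosen by name, as the gene names in the scanner files that equal one of these 9 symbols, out of 29411 gene names on the array. All 9 passed the filter on dim probes, as did 21625 genes of the whole array.

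The route starts in the mitochondria, where citrate is made and exported. Acly, ATP citrate lyase, splits that citrate to acetyl-CoA in the cytosol, and Acss2 makes acetyl-CoA from acetate. Aacs activates acetoacetate, a ketone body, for use in lipid synthesis. Acaca and Acacb are the acetyl-CoA carboxylases that make malonyl-CoA. The product of Acaca feeds chain building and that of Acacb, at the mitochondrial surface, restrains the entry of fatty acids into oxidation. Fasn, fatty acid synthase, builds palmitate from malonyl-CoA with NADPH, part of which Me1, the cytosolic malic enzyme, supplies. Thrsp, also called Spot 14, is a lipogenic protein induced by thyroid hormone and carbohydrate. Pnpla3 encodes a lipid droplet protein whose gene is induced with the lipogenic programme. In many tissues SREBP-1c (gene Srebf1) and ChREBP (gene Mlxipl) switch these genes on in answer to insulin and glucose. Brown adipose tissue, which burns fat for heat through Ucp1, is known for a high capacity to make fatty acids.

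The series comprised 38 arrays of total RNA from the brown adipose tissue of C57BL/6J mice weaned at 3 to 4 weeks of age. LFC mice were given a low fat diet with 10% of calories from fat, and HFC mice a diet with more sucrose and 60% of calories from fat. HF5, HF20 and HF75 mice had the HFC diet with 5, 20 or 75 µg of Kal-1, a plant formulation. LFC and HFC were each measured at Days 6, 10 and 14 and at Weeks 0, 3, 6, 9, 12, 15 and 18, with 1 array per time point, and the doses at Weeks 3 to 18 only. The published methods count weeks from Day 14, so Day 14 and Week 0 are the same day on diet. They were kept here as separate time points. The series' design text speaks of 3 biological replicates, and how these relate to the single arrays analysed here is not given in the sources used here. Each group held 30 mice, of which 5 were taken every 3 weeks. The labels do not say whether an array holds RNA of 1 mouse or of a pool, and the spread within a group is therefore the spread between its time points.

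Arrays differed greatly in brightness, and this bears on every value that follows. The 75th percentile of an array's signal ran from 35.1 to 1209, and 11 arrays above 600 are called bright here, with the other 27 called dim. Of the bright arrays, 4 were LFC (Weeks 0, 3, 9 and 12), 2 were HFC (Day 10 and Week 3), 4 were HF20 (Weeks 3, 6, 12 and 15), 1 was HF75 (Week 3) and 0 were HF5. Bright arrays had 285 to 985 saturated spots and dim arrays 7 to 148, and a saturated spot holds only a lower bound. The array of HF75 at Week 3 stood apart from its label. Its level of Ucp1 was -3.07 on the log2 scale used below, against 3.38 to 8.57 on the other 37 arrays, and the summed level of the 10 brown adipocyte markers was 3.45 against 7.05 to 10.4 elsewhere. Counts of members in the fitted comparisons of HF75 are given with and without it. Group means, marker values and fits limited to arrays of like brightness include it unless stated. The summed skeletal muscle markers also varied widely in every group, from -0.83 to 8.06 in LFC, -0.17 to 8.65 in HFC and 2.35 to 10.1 in HF75. In bulk tissue, fewer cells of a type and less RNA per cell cannot be told apart.

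Because most members moved together from array to array, the stretches of DNA just before 4 of their start sites are shown, to let the reader compare their sequences with the values. The RefSeq tables hold a promoter for all 9 members, in 10 entries since Me1 has a pair of starts. The 250 bases before the start are printed 5′ to 3′ on the strand of the gene, from the GRCm38.p6 build. Capitals mark 4 short motifs, searched on both strands. These were CCAAT, the core bound by NF-Y, GGGCGG, the GC box bound by Sp1, TCACCC, a stretch found within sterol regulatory elements, and CACGTG, the E-box. The last motif is the same on both strands.

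Fasn, chr11:120824548-120824797, minus strand: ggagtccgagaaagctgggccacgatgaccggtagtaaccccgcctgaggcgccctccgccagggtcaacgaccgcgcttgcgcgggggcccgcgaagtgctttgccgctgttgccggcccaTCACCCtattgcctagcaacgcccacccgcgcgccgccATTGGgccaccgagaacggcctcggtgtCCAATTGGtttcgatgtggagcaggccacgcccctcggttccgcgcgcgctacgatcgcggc
Thrsp, chr7:97417551-97417800, minus strand: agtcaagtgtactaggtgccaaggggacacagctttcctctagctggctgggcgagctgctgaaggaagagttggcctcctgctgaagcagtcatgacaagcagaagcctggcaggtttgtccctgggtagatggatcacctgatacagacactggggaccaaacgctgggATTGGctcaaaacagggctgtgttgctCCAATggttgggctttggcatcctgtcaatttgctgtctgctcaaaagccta
Acly, chr11:100528001-100528250, minus strand: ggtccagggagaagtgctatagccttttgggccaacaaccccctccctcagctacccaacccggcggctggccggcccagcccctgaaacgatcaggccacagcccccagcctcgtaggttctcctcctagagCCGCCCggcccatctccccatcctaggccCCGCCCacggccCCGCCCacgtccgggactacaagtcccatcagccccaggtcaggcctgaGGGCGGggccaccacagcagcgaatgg
Acss2, chr2:155517793-155518042, plus strand: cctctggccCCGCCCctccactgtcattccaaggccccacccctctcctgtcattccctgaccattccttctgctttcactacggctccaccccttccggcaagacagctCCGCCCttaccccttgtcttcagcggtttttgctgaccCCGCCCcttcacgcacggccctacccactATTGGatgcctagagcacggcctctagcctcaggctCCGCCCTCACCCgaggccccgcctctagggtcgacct

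Fasn held 3 CCAAT motifs, of which a plus and a minus strand match overlapped within 8 bases, and 1 TCACCC. Thrsp held 2 CCAAT motifs, 1 on each strand, and Acly held 4 GGGCGG motifs and no CCAAT. Acss2 held 4 GGGCGG, 1 CCAAT and 1 TCACCC. Over the 10 member entries, CCAAT was found in 6, GGGCGG in 4, TCACCC in 4 and CACGTG in 0. The shares among all 32851 promoter windows of the same length were 33.8%, 32.7%, 13.8% and 6.02%. A match describes letters in this window and is not a mapped site.

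Levels are given as the log2 of the processed signal minus the 75th percentile of the array, so that 1 unit is a 2-fold difference and 0 is the brightness at that percentile. Where a gene had several probes, the one with the highest mean was used. The level of one probe is not compared with that of another. Fasn had 2 probes, Acaca 4, Acss2 2, and the other members 1 each.

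The members did not split into LFC and HFC alone: within LFC they split by brightness. Acss2 lay at 4.99 to 5.85 on the 4 bright LFC arrays and at 0.26 to 1.87 on the 6 dim ones. Acaca, the carboxylase for chain building, was 4.58 ± 0.36 (SD, n = 4) and 0.45 ± 0.80 (SD, n = 6), and Acly was 5.35 ± 0.57 (SD, n = 4) and 2.61 ± 0.52 (SD, n = 6). For these 3 genes the bright and dim LFC arrays did not overlap, nor did they for Me1, Pnpla3, Aacs and Acacb, whereas they overlapped for Fasn and Thrsp. In HF20, Acss2 was likewise 2.16 to 4.54 on the 4 bright arrays and -0.04 and 1.06 on the dim arrays of Weeks 18 and 9, and Acaca did not overlap either, whereas Acly overlapped, with 3.02 on the dim array of Week 9 and 2.03 on the bright array of Week 6. The bright HF75 array was low instead, with Acss2 at -1.45 and Acaca at -2.71, the latter the lowest of all 38 arrays. Most bright arrays, and few dim ones, carry the letter R followed by a digit in their titles, and its meaning is not given. The bright LFC array of Week 9 was scanned on another day than the dim arrays of that week. At Week 6 the bright HF20 and the dim HF75 array shared a scan day apart from the other groups. Arrays of every other time point shared a scan day. Whether brightness is of technical origin or moves with the tissue was not tested.

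**Figure D1:**
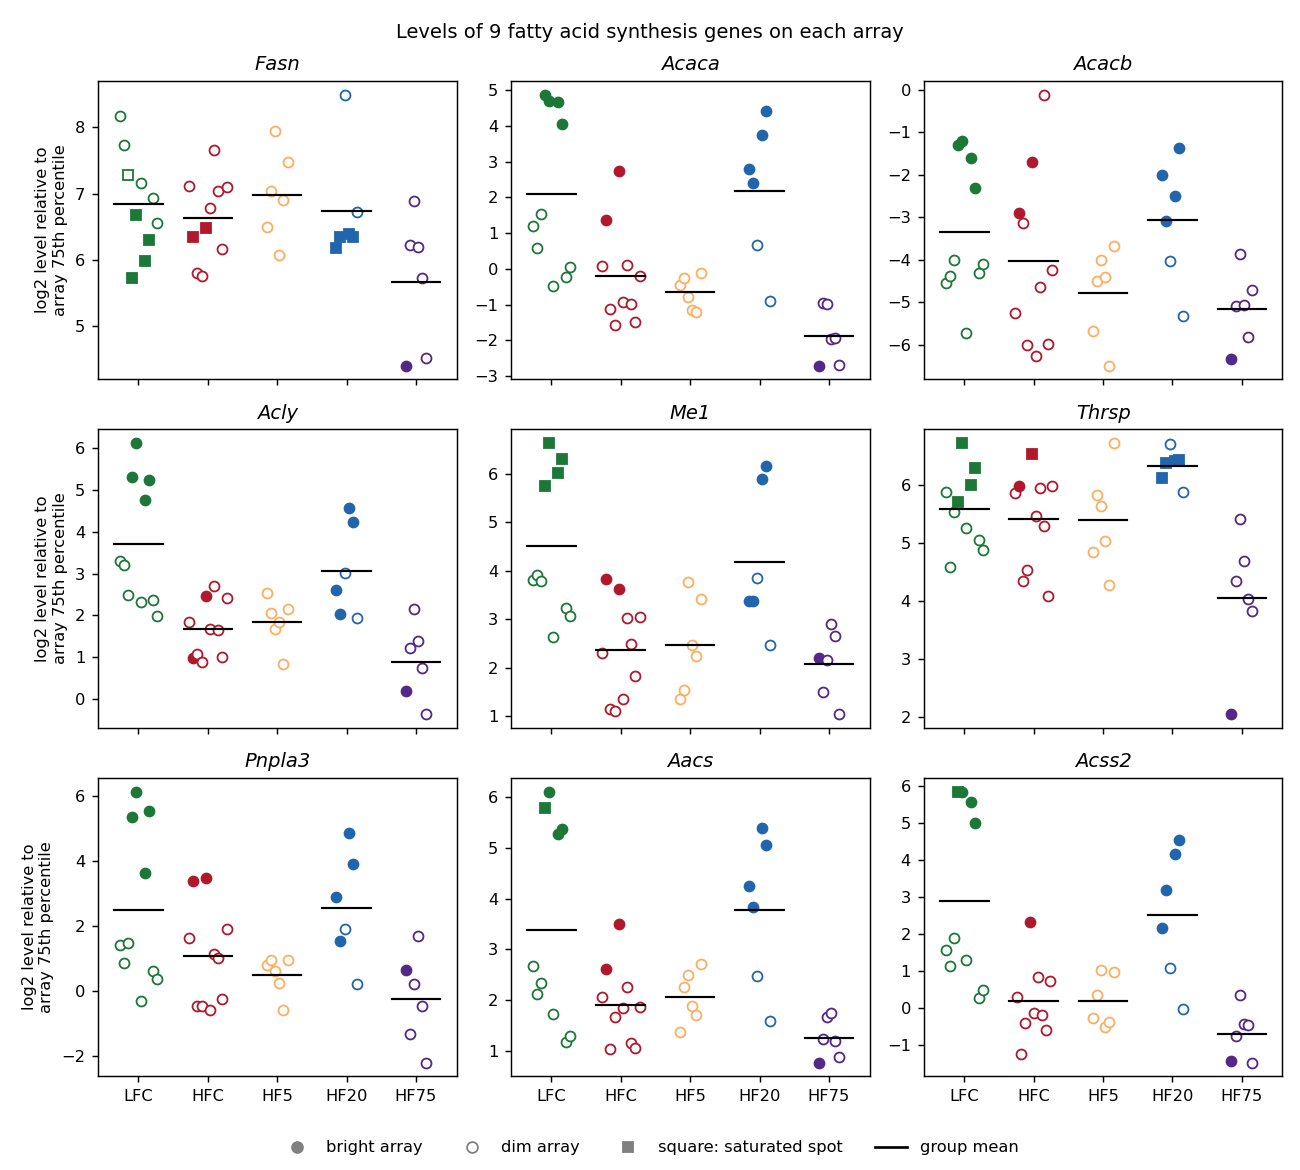
Each panel is 1 gene and each point 1 array, with the group on the x axis and the log2 level relative to the 75th percentile of the array on the y axis. Filled points are bright arrays, open points dim arrays, squares are spots that were saturated and the black line is the group mean. The filled LFC points sit apart from the open ones for all genes but Fasn and Thrsp, and all 6 HF75 points of Acly lie at 2.16 or lower.

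Diet was compared first, with HFC set against LFC at the 10 time points and the time point as a block. All 9 members had a lower mean in HFC, against 45.2% of the 21625 genes tested, and their median difference was -1.48 on the log2 scale, against 0.05 over all genes. No member passed an adjusted p of 0.05, and neither did any other gene (percent called 0), the lowest adjusted p of all being 0.278 by limma. At an unadjusted p under 0.05, 1474 genes were counted (percent called 6.82), 485 of them lower in HFC (percent called 2.24), and 5 of the 9 members were among those lower: Acaca, Acly, Me1, Aacs and Acss2. In the 6 time points where both arrays were of one brightness class, all 9 members were again lower, with a median difference of -0.67, and 4 of 9 had an unadjusted p under 0.05 in that direction, against 1.39% of all genes. With the brightness class as a term, the median was -0.98.

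Of the enzymes that supply acetyl-CoA, Acss2 had the largest mean difference of the 9 members. It lay between 0.26 and 5.85 in LFC, with a median of 1.72, and between -1.25 and 2.31 in HFC, with a median of -0.15. The HFC array of Day 10 gave no value, since its spot was marked as an outlier, and that array was dropped from the fit of this gene. The ranges overlapped, and HFC was lower at 8 of the 9 time points measured. The difference was -2.91 ± 0.65 (SE, adjusted p = 0.652), and -1.67 ± 0.49 (SE, adjusted p = 0.838) in the time points of one brightness class. The other probe of Acss2 differed by -2.33 ± 2.69 (SD over 10 time points).

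Acly lay between 1.99 and 6.12 in LFC, with a median of 3.25, and between 0.88 and 2.70 in HFC, with a median of 1.67. HFC was lower at 9 of 10 time points, Week 18 being the exception, and the difference was -2.04 ± 0.43 (SE, adjusted p = 0.652). No spot of Acly was saturated, and the difference was -1.35 ± 0.47 (SE, adjusted p = 0.838) within one brightness class. Aacs, which activates acetoacetate, ran from 1.16 to 6.11 in LFC and from 1.03 to 3.49 in HFC. HFC was lower in 7 of the 10, and the difference was -1.48 ± 0.53 (SE, adjusted p = 0.652).

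Me1, the NADPH supplier, was lower in HFC at all 10 time points. It ran from 2.63 to 6.63 in LFC, with a median of 3.86, and from 1.11 to 3.82 in HFC, with a median of 2.40, so the ranges overlapped. The difference was -2.14 ± 0.45 (SE, adjusted p = 0.652). At Week 18 both arrays read 3.06. Its spot was saturated on the 4 bright LFC arrays and on no HFC array, so that the LFC values at Weeks 0, 3, 9 and 12 are lower bounds. In the time points of one brightness class the difference was -1.64 ± 0.38 (SE, adjusted p = 0.838).

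Of the carboxylases, Acaca lay between -0.47 and 4.88 in LFC and between -1.57 and 2.73 in HFC, with medians of 1.37 and -0.57. HFC was lower at 9 of 10 time points, and the difference was -2.30 ± 0.67 (SE, adjusted p = 0.652). Its other 3 probes, which were dimmer, differed by -1.34, -0.33 and -1.23. Acacb was well above background on only 13 of the 38 arrays, namely 5 LFC, 4 HFC and 4 HF20. Its difference was -0.67 ± 0.59 (SE, adjusted p = 0.693), and most of its values are readings near the background. Pnpla3 lay between -0.30 and 6.14 in LFC and between -0.60 and 3.48 in HFC, and its difference was -1.43 ± 0.73 (SE, adjusted p = 0.652) with HFC lower in 7 of the 10.

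Fasn and Thrsp, by contrast, showed small differences, of -0.23 ± 0.31 (SE, adjusted p = 0.786) and -0.19 ± 0.29 (SE, adjusted p = 0.812). The 95% intervals ran from -0.90 to 0.45 and from -0.82 to 0.44. Saturation stood beside both. The Fasn probe was saturated on 5 LFC, 2 HFC and 4 HF20 arrays, and the Thrsp probe on 4 LFC, 1 HFC and 4 HF20 arrays. On the LFC array of Week 0, 5 members were saturated and read nearly the same value, from 5.72 for Thrsp to 5.85 for Acss2.

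The second probe of Fasn was dimmer and was saturated on 2 arrays only, LFC at Weeks 0 and 9. It read 6.22 at Week 3 and 5.27 at Week 12 in LFC, where the brighter probe was saturated, and 0.53 to 2.25 on the 6 dim LFC arrays. In HFC it ran from -0.91 to 2.59. By this probe the difference was -2.44 ± 0.66 (SE, adjusted p = 0.652), lower in HFC in 9 of the 10. At Week 9 the brighter probe read 1.68 higher in HFC, while the dimmer one read 1.50 in HFC and 5.96 in LFC. A gene with 2 probes thus gave a small or a large difference according to the probe, and Thrsp had no second probe to compare.

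**Figure D2:**
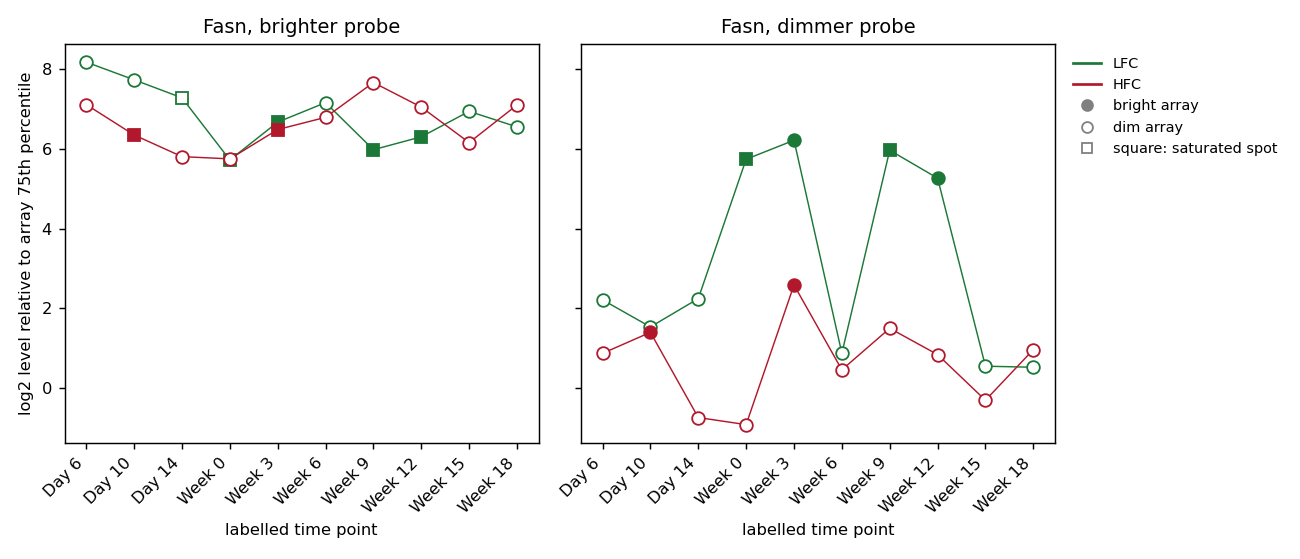
The log2 level of the 2 Fasn probes on the y axis is plotted over the labelled time points in LFC (green) and HFC (red), with filled symbols for bright arrays and squares for saturated spots. The brighter probe stays between 5.72 and 8.17 in both diets, while the dimmer one reaches 6.22 on the bright LFC arrays and does not exceed 2.59 in HFC.

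Time points did not contribute equally. At Week 0, 8 of 9 members were at least 2-fold lower in HFC, where 21.7% of all genes were, and the median member difference was -4.64. Week 9 had 7 members at least 2-fold lower against 18.4% of all genes, and Week 12 had 6 against 20.5%. In these 3 time points LFC was measured on a bright and HFC on a dim array. At Day 10, where the HFC array was the bright one, the median was 0.64, 3 of 8 members measured were lower and 2 were at least 2-fold lower, against 29.6% of all genes. Among the time points of one class, Day 14 had 8 members at least 2-fold lower, against 6.9% of all genes, and Week 3 had 6 against 13.5%. Day 6 had 5 against 4.86%, Week 15 had 4 against 3.24%, Week 6 had 2 against 6.94% and Week 18 had 0 against 17%. At Week 18 the median was 0.44 and 3 of 9 members were lower. At Day 14, the same day on diet as Week 0, the median was -1.47 with both arrays dim.

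**Figure D3:**
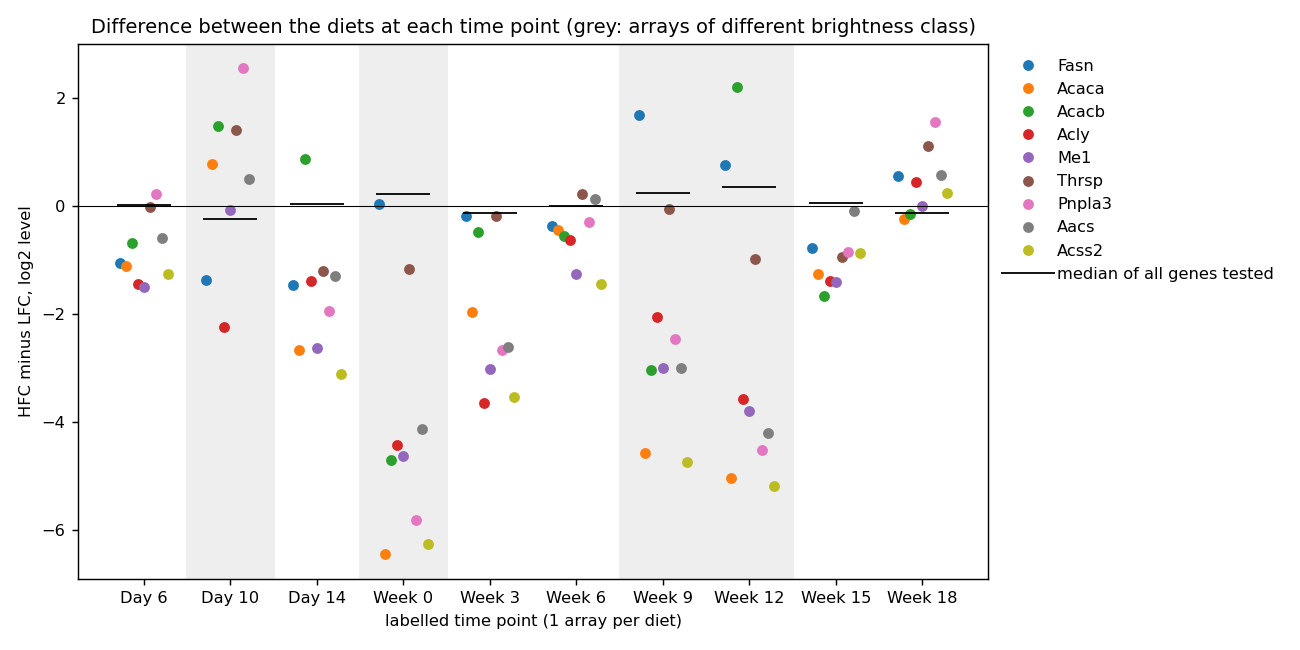
Each point is the HFC minus LFC difference of 1 gene, in log2 units on the y axis, at a labelled time point on the x axis, with a black bar for the median of all genes tested. Grey bands mark time points whose arrays differed in brightness class; the lowest point, Acaca at -6.45, lies in the band of Week 0, and 8 of 9 points at Day 14 and all 9 at Week 3 also lie below 0.

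A change of the diet difference with the days on diet passed the test for no member. The product of diet and day, per 7 days, ranged from 0.01 to 0.12 over the 9 members with adjusted p of 0.411 to 0.963, and no gene passed (percent called 0, with 15.2% at an unadjusted p under 0.05, none of them members). The trend over days common to both diets ranged from -0.06 to -0.00345 per 7 days, and no member passed against 1.41% of all genes. For Acly the 95% interval of the product was -0.05 to 0.22 per 7 days.

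In Weeks 3 to 18, where all 5 groups were measured, HF75 had the lowest mean of the 5 groups for each of the 8 members other than Acacb, which was near background there. LFC and HF20 had the highest means of these 8, in either order, except for the brighter probe of Fasn, which was saturated on 3 LFC and 4 HF20 arrays of these weeks, so that no order can be read from it. The dimmer Fasn probe had means of 3.24 in HF20, 3.23 in LFC, 1.01 in HFC, 0.79 in HF5 and -0.53 in HF75. For Acss2 the means were 3.08 ± 2.66 in LFC, 2.51 ± 1.79 in HF20, 0.48 ± 1.06 in HFC, 0.19 ± 0.69 in HF5 and -0.71 ± 0.69 in HF75 (SD, n = 6 each). For Acly they were 3.80 ± 1.78, 3.06 ± 1.12, 1.99 ± 0.65, 1.85 ± 0.58 and 0.89 ± 0.90 in the same order. The HF75 means include the array of Week 3, and over the 5 dim HF75 arrays they were -0.56 for Acss2 and 1.03 for Acly. No pair of neighbours in these orders differed by an adjusted p under 0.05. HFC against LFC over these weeks gave 8 of 9 members lower (46.5% of all genes) and a median member difference of -1.55, with 0 members passing (percent called 0.00925, 2 genes) and 5 lower at an unadjusted p under 0.05 against 4.07% of all genes. In the 4 weeks of one brightness class the median was -0.71, and 2 members were lower at that level, against 1.03% of all genes.

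Kal-1 was then set against HFC at each dose. For HF5 the 9 differences ranged from -0.96 to 0.12 with a median of -0.16, 7 of 9 below 0 (48.7% of all genes), the lowest being Acacb, with no HF5 array well above background. At Week 3 the HFC array was bright and the HF5 array dim, and over the 5 weeks of one class the median was 0.13, with 3 of 9 below 0. In those 5 weeks Aacs was higher by 0.57 ± 0.24 (SE, p = 0.0456 and adjusted p = 0.358 by limma), and 0 genes passed after adjustment. In that fit 11.3% of all genes and 0 members were lower at an unadjusted p under 0.05. The share of all genes higher at that level was not counted. Over all 6 weeks no member passed at either level (percent called 0 after adjustment), against 5.51% of all genes at an unadjusted p under 0.05. For Fasn the 95% interval ran from -0.65 to 0.88, and for Acss2 from -2.08 to 1.49, so differences of several fold either way were not detectable for the latter.

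HF20 had higher means than HFC for 8 of 9 members, while 58% of all genes were below 0, with a median member difference of 1.43 against -0.18 over all genes. None passed an adjusted p of 0.05 and no gene did (percent called 0). At an unadjusted p under 0.05, Acaca, Me1, Aacs and Acss2 were higher, against 13.4% of all genes in that direction. Acaca differed by 2.32 ± 0.89 (SE, adjusted p = 0.122), Acss2 by 2.03 ± 0.86 and Me1 by 1.62 ± 0.63. The excess lay at Weeks 6, 12 and 15, whose HF20 arrays were bright and HFC arrays dim. There the median member differences were 2.02, 3.38 and 4.16. At Weeks 3, 9 and 18, with both arrays of one class, they were -0.23, 0.61 and -0.59, and the fit on those weeks gave a median of -0.01. Brightness and dose cannot be told apart at the other weeks. In the same comparison 11 of 11 skeletal muscle markers had higher means (median 1.80), as did 7 of 10 brown adipocyte markers (0.69), while 5 of 5 erythroid (-1.57) and 3 of 3 endothelial markers (-1.36) had lower ones. None of these passed after adjustment, and their part in the members' differences was not tested.

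HF75 was the comparison with HFC in which every week had both arrays of one class. All 9 fitted differences were below 0 (52.2% of all genes), although that of Acacb has no established direction, since it was not above background on any HF75 array and was lower at 3 of 6 weeks. The median was -1.21 against -0.03 over all genes. None passed an adjusted p of 0.05 (percent called 0), and 2 had an unadjusted p under 0.05, Fasn and Thrsp, against 4.31% of all genes lower. Fitted on these 2 groups alone, Acaca and Acly joined them, against 4.11% of all genes. Thrsp ran from 4.10 to 6.54 in HFC, with a median of 5.71, and from 2.06 to 5.42 in HF75, with a median of 4.20. HF75 was lower at 6 of 6 weeks, and the difference was -1.50 ± 0.46 (SE, adjusted p = 0.53). Without the HF75 array of Week 3, which lacked the usual Ucp1 level, it was -1.03 ± 0.40 (SE, adjusted p = 0.803).

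The brighter Fasn probe ran from 6.16 to 7.66 in HFC and from 4.40 to 6.90 in HF75, was not saturated on any HF75 array, and was lower in HF75 at 6 of 6 weeks. Its difference was -1.21 ± 0.37 (SE, adjusted p = 0.53), and -1.03 ± 0.38 (SE, adjusted p = 0.803) without that array. The dimmer Fasn probe gave -1.55 ± 0.91 (SE, adjusted p = 0.57), also lower at 6 of 6 weeks. Acaca and Acly were lower at 6 of 6 weeks too, with differences of -1.74 ± 0.89 and -1.10 ± 0.57 (SE). Without the HF75 array of Week 3 these were -1.26 and -0.81, and with both arrays of Week 3 left out, -1.003 and -0.863. Me1 was lower at 3 of 6 weeks, with a difference of -0.48 ± 0.63 (SE), which was -0.45 without that array, -0.30 with Week 3 left out and -0.18 with Week 18 left out. The weeks with the largest member differences were Week 3 (median -2.83) and Week 18 (median -2.21), and the other 4 weeks lay between -0.59 and -0.06. Without the Week 3 array the median over members was -0.87, and the same 2 members had an unadjusted p under 0.05, against 2.59% of all genes lower. Brown adipocyte markers were lower beside the members, in 9 of 10 genes with a median of -1.44 and 2 at an unadjusted p under 0.05, as were 6 of 7 general adipocyte markers (median -0.62), and none passed after adjustment. These medians include the HF75 array of Week 3, where the summed brown adipocyte level was 3.45 against 8.79 in HFC. At Weeks 6, 9, 12, 15 and 18 it was 7.73, 8.79, 8.84, 7.95 and 7.90 in HF75. The HFC levels of those weeks were 8.07, 10.0, 9.03, 7.77 and 8.90. The part of these markers was not tested.

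**Figure D4:**
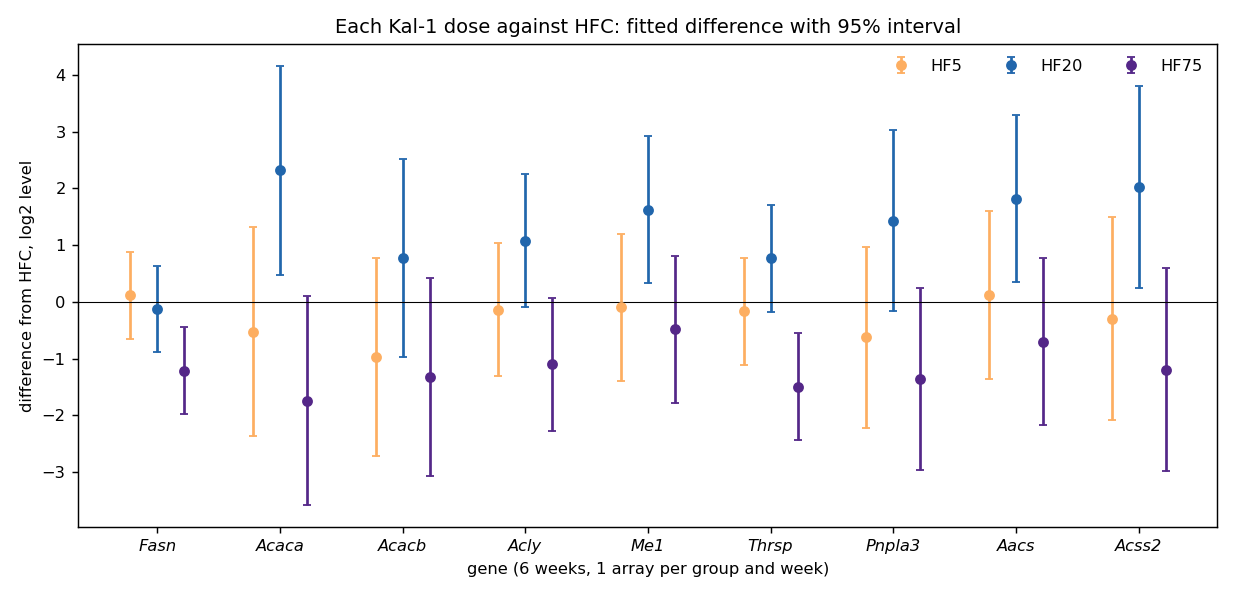
For each gene on the x axis the points give the fitted difference of HF5 (orange), HF20 (blue) and HF75 (purple) from HFC in log2 units, over 6 weeks with 1 array per group and week, and the bars the 95% interval. The intervals of HF75 lie below 0 for Fasn and Thrsp, and those of HF20 lie above 0 for Acaca, Me1, Aacs and Acss2; no adjusted p was under 0.05.

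In HF75 against LFC, all 9 fitted differences were below 0 (42.1% of all genes). Each had an unadjusted p under 0.05, against 9.66% of all genes lower. The LFC arrays are shared with the comparison of HFC and LFC. The difference of Acacb has no established direction in any fit of HF75 against LFC. Acacb was not well above background on any HF75 array. No member passed after adjustment (percent called 0.0277, 6 genes). Acly came nearest, at -2.91 ± 0.57 (SE, adjusted p = 0.089) and lower at 6 of 6 weeks. Without the HF75 array of Week 3, 7 members had an unadjusted p under 0.05, against 5.86% of all genes, and Acly was at -2.62 ± 0.58 (SE, adjusted p = 0.33). In the 4 weeks of one brightness class all 9 fitted differences were below 0, with a median of -2.04. There 7 of 9 had an unadjusted p under 0.05, against 2.03% of all genes. These weeks include the HF75 array of Week 3, where the member median was -5.34, against -0.93, -1.08 and -2.01 at Weeks 6, 15 and 18. HF5 against LFC had 5 members lower at an unadjusted p under 0.05 (4% of all genes lower) and 0 passing (percent called 0.00925), with a median of -1.95. All HF5 arrays were dim, and in the 3 weeks in which LFC was dim too the median was -0.18, with 0 members at that level. HF20 against LFC had none at either level (5% of all genes unadjusted, percent called 0 adjusted), with a median of 0.06. In the 3 weeks of one class, 8 of 9 members were lower in HF20, with a median of -1.05, and 2 had an unadjusted p under 0.05, against 3.8% of all genes.

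The calls between the doses changed with the arrays used and the terms fitted, and the cause was not tested. With all arrays, the joint test over HF5, HF20 and HF75 passed for 8 of 9 members, all but Acacb, at adjusted p of 0.0338 to 0.048, against a percent called of 13.8 over all genes. It passed for 0 members and 0 genes without the HF75 array of Week 3, and for 0 members with the brightness class as a term. The pair with the most calls was HF75 against HF20. All 9 fitted differences there were below 0 (39.7% of all genes), that of Acacb without an established direction. Called lower were 8 members, against 13% of all genes, and 25.9% of all genes were called in either direction. This pair was picked after its values were seen. Acaca was lower in HF75 by -4.06 ± 0.89 (SE, adjusted p = 0.0141), with values from -2.71 to -0.95 in HF75 and from -0.91 to 4.43 in HF20 that did not overlap. Thrsp differed by -2.26 ± 0.46 (SE, adjusted p = 0.0133), with HF20 at 5.88 to 6.71 and HF75 at 2.06 to 5.42, again without overlap, although 4 of its 6 HF20 values were saturated and are lower bounds. Acss2 differed by -3.22 ± 0.86 (SE, adjusted p = 0.0177), and each of the 8 called members was lower at 6 of 6 weeks.

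Weeks 6, 12 and 15 had HF20 on bright and HF75 on dim arrays. In Weeks 3, 9 and 18, of one class, all 9 fitted differences were still below 0, with a median of -1.86. That of Acacb again has no established direction. At an unadjusted p under 0.05 were 7 of 9, against 4.05% of all genes lower, but none passed after adjustment (lowest of the members 0.699). That fit includes the HF75 array of Week 3, and the member medians of these weeks were -3.48, -1.29 and -1.79. Leaving out Week 6, 12 or 15 left 0 members called, and leaving out the HF75 array of Week 3 left 5, against 9.08% of all genes. With the brightness class as a term 0 members were called and the median was -1.51. HF75 against HF5, all but 1 week of which was of one class, had lower means for the 8 members other than Acacb, which was not above background in either group, with a median over all 9 of -0.90 (55.3% of all genes below 0) and 0 called (percent called 0, 2 members and 1.32% of all genes lower at an unadjusted p under 0.05). Without the HF75 array of Week 3 the median was -0.59, with 0 called and 2 members at an unadjusted p under 0.05, against 0.916% of all genes lower. HF20 against HF5 had 0 called (percent called 0) and 6 members higher at that level, against 13.7% of all genes. In 4 of its 6 weeks the HF20 array was bright and the HF5 array dim. Of the 2 weeks of one class, Week 9 had a median of 0.55 and Week 18 one of -0.85, with all 9 members lower at the latter.

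**Figure D5:**
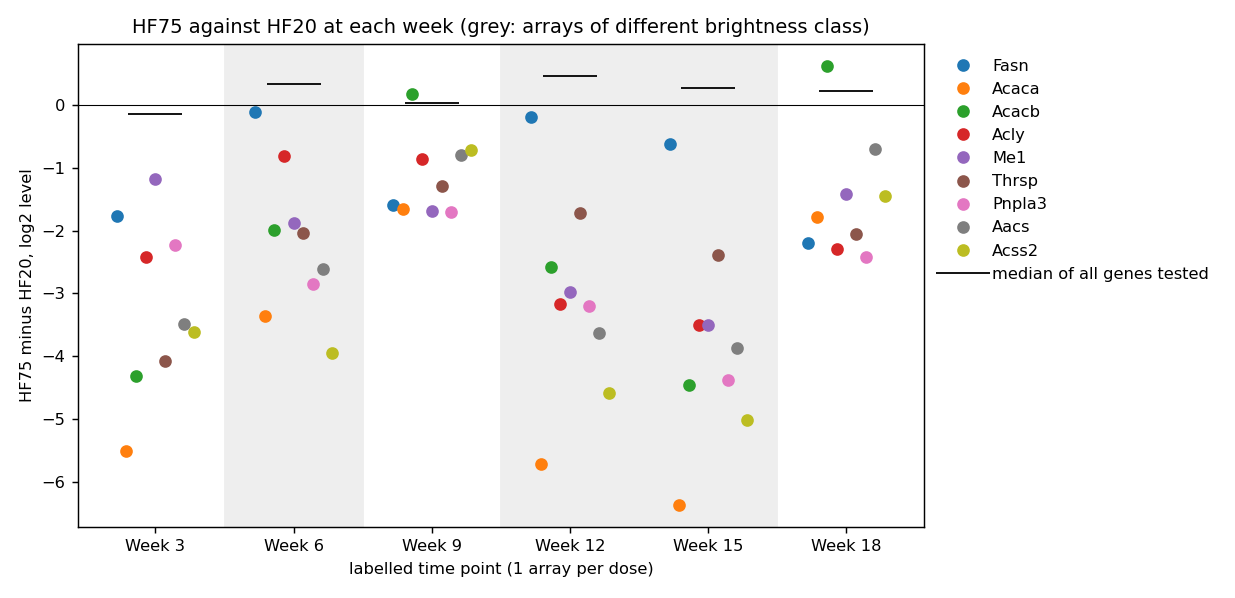
Points are the HF75 minus HF20 difference of each gene in log2 units on the y axis at each week on the x axis, with a black bar for the median of all genes tested and grey bands for weeks of unlike brightness class. Points of the grey weeks reach -6.36, and in the weeks of one class they reach -5.50 at Week 3, -1.71 at Week 9 and -2.42 at Week 18.

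Acacb was not well above background on any HF5 or HF75 array, so its level there is not known. With the HF5 and HF75 arrays raised to at least the lowest signal well above background, the mean of HF20 was 1.35-fold that of HF5 and 1.48-fold that of HF75. The mean of LFC was 1.21-fold and 1.33-fold those of HF5 and HF75, and that of HFC 0.79-fold and 0.87-fold. These ratios are not strict bounds, since only 4 of 6 HF20, 3 of 6 LFC and 2 of 6 HFC arrays were well above background and the others entered as read. All 4 of those HF20 arrays were bright, and dose and brightness cannot be told apart there. The fitted difference between HF75 and HF20 was -2.09 (adjusted p = 0.0681 by limma).

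Genes around the 9 enzymes were described from lists of the route. In HFC against LFC no gene of any list passed after adjustment (percent called 0). Elongation and desaturation, the steps after Fasn, had 9 of 10 genes with lower means in HFC and a median of -0.65. Scd1, which makes oleate from stearate, had a difference of -2.09 ± 0.34 (SE, adjusted p = 0.278), with saturated spots on 6 arrays. Elovl6, which extends palmitate, had one of -2.91 ± 0.60 (SE, adjusted p = 0.652), and both were lower in 9 of the 10. Of the 13 lipogenic regulators, 12 had lower means, with a median of -0.30. Mlxipl differed by -1.72 ± 0.80 (SE, adjusted p = 0.652), Srebf1 by -0.99 ± 0.49, Insig1, which retains SREBP in the endoplasmic reticulum, by -1.13 ± 0.45, and Mid1ip1, a relative of Thrsp, by -0.71 ± 0.28.

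The genes that supply precursors and NADPH were mixed, with 8 of 11 lower and a median of -0.14. Slc25a1, the citrate carrier of the mitochondria, differed by -1.66 ± 0.55 (SE, adjusted p = 0.652) and Pgd, of the pentose phosphate route, by -1.20 ± 0.53. Glucose entry had 4 of 6 lower and a median of -0.46, with the glucose transporter Slc2a4 at -1.16 ± 0.61 and Hk2 at -0.96 ± 0.65 (SE). In glycerolipid synthesis, where fatty acids are joined to glycerol, Gpd1 was 0.90 ± 0.35 higher in HFC, with 10 saturated arrays, and Agpat2 differed by -1.31 ± 0.68 (SE, adjusted p = 0.652 for both). Of the 6 genes of malonyl-CoA and acyl-CoA use, Acsl5 differed by -1.24 ± 0.38 and Acsl1 by 0.33 ± 0.42 (SE). The 5 genes of mitochondrial fatty acid synthesis that were tested, which serve lipoic acid and not fat storage, had a median of -0.21, with Oxsm at -0.47 ± 0.41 and Mcat at -0.26 ± 0.47 (SE). The median over all genes was 0.05.

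In HF75 against HF20 many genes of these lists were called. Called lower were 10 of 11 supply genes, 7 of 13 regulators, 5 of 7 glycerolipid genes, 4 of 6 genes of acyl-CoA use, all 5 mitochondrial genes and 5 of 6 genes of glucose entry, against 13% of all genes, and elongation and desaturation had 3 of 10 called lower and 3 called higher. These calls share the limits of the members' calls: without the HF75 array of Week 3 the share of all genes called was 9.08% in place of 25.9%, and in the weeks of one class 0 genes were called. Beside this, 5 of 10 brown adipocyte markers and 4 of 7 general adipocyte markers were also called lower, and 1 of 3 endothelial markers higher. The summed endothelial markers ran from 3.65 to 7.70 in HF20 and from 6.49 to 7.48 in HF75. In HFC against LFC, 7 of 8 lymphocyte markers were higher at an unadjusted p under 0.05, with summed levels of -2.28 to 0.43 in LFC and -1.68 to 1.78 in HFC. Of all genes, 6.82% were at that level in either direction and 2.24% lower. Over Weeks 3 to 18, 2 of the 8 markers were higher at that level, and 0 passed after adjustment in either fit. The part of these shifts in the members' differences was not tested.

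Most members varied together. Over 38 arrays the 36 pairs of members had Pearson correlations from 0.02 to 0.97 with a median of 0.71, and over the 27 dim arrays from 0.03 to 0.87 with a median of 0.67. Acaca and Acss2 were the closest pair over 38 arrays, at 0.97, and Acaca and Acly over the dim ones, at 0.87. The lowest pairs over all arrays held the brighter Fasn probe, whose correlation with Aacs was 0.02 over 38 arrays and 0.79 over the dim ones. Over the dim arrays the lowest pairs held Acacb, at 0.03 to 0.33 with the other members. Most of its readings there were near background. The arrays share diets, time points and brightness, and no p is given. The gene outside the 9 most like their mean profile was Elovl6 (r = 0.96 over 38 arrays, 0.89 over the dim ones), followed by Acot11, an acyl-CoA thioesterase (0.95 and 0.83). Mlxipl (0.93 and 0.91) and Pgd (0.93 and 0.80) were also among the first 10, and the other 6 were predicted genes named Gm11295, Gm3866, Gm5276, Gm6484, Gm7049 and Gm7556. The median correlation of all other genes with the profile was -0.15.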

How the data were processed

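The deposited scanner files hold spot intensity from Agilent Feature Extraction 10.5.1.1 per the file headers (the labels name version 9.1), from a 1-colour Cy3 array designed on build mm9. Outlier spots were left out, spots of a probe averaged, and log2 of the processed intensity taken minus the 75th percentile of the array. Each gene was represented by its brightest probe on average, and was tested if the spots exceeded background clearly on 6 or more of the 38 arrays. The deposited table of log2 values against LFC was made by the authors and used only as an alternative. Its Week 15 columns did not correlate with the scanner files (r at most 0.00215). Flags of saturation were not used as a filter.

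Differences were fitted with limma 3.58.1 in R 4.3.3, with the time point as block and Benjamini-Hochberg adjustment over all genes tested. HFC against LFC used the 20 arrays of both diets, and the other comparisons the 30 arrays of Weeks 3 to 18. The day was set to 14 plus 7 days per week. The time points stand in for replicates, so p-values measure the spread between single arrays, which may be technical. The number of arrays limits the precision. On simulated data, 72.7% of genes changed 4-fold (2 on the log2 scale) in HFC against LFC were recovered among 20623 genes. The simulated noise was drawn for each gene on its own, without the shifts in brightness that genes of an array share. That share therefore cannot be carried over to these arrays, on which Acss2 at -2.91 had an adjusted p of 0.652 by limma. The members and the lists of genes were chosen with earlier results of these data known. Named were all members, 2 genes of each list with the smallest p in HFC against LFC, Srebf1, Mlxipl, and the 10 genes most like the members. The motifs were chosen for this work, and Ucp1 and Mod1 were named after their values were seen. Sequences are from RefSeq.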

Additional observations from a re-analysis of the deposited data

Results flagged for a closer look

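Of 45 sets of values (9 members in 5 groups), 1 had a sample whose gap to the rest was wide for its range, and chance gives about 1 such set in 20. It was Fasn in HF20, where the array of Week 9 read 8.50 and the next highest 6.72, with the gap at 0.77 of the range. The Week 9 array was dim and its spot unsaturated, while the 4 bright HF20 arrays were saturated at 6.18 to 6.39. The dimmer Fasn probe read 2.42 at that array, inside its HF20 range of -0.07 to 5.68.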

How the results depend on the processing

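Over 20 alternatives to HFC against LFC and 17 to HF75 against HFC, and over each time point left out in turn, 0 members passed an adjusted p of 0.05 in either comparison. The median member difference of HFC against LFC ranged from -2.04 to -0.67, and from -1.87 to -1.17 with a time point left out. That of HF75 against HFC ranged from -1.47 to -0.85, and from -1.46 to -0.86 with a week left out. In HFC against LFC the sign turned for Acacb with normexp (0.20) and for Thrsp with saturated spots missing (0.0915) or in the deposited table (0.031), and in HF75 against HFC it turned for Me1 with array weights (0.0111). The methods' t-test gave 5 members lower and 882 genes at an unadjusted p under 0.05, and 0 after adjustment.

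The calls between doses changed with the processing. The count of 8 members in the joint test became 0 with normexp, no filter, the brightness class as a term, the log2 75th percentile as a term, the deposited table without Week 15 and leaving out HF75 at Week 3. The count was 3 with no replicate block (the time point dropped) and 5 with scan day as the block, and ranged from 0 to 8 with a week left out. For HF75 against HF20 it became 0 with normexp, the brightness class as a term, the log2 75th percentile as a term and only weeks of one class, and 5 without the HF75 array of Week 3, with a range of 0 to 9 when a week was left out. There Acacb turned to 0.10 with normexp. HF20 against HFC gave 5 members with array weights and 0 to 1 with a week left out. The genes called in HF20 against HFC reached 4880 over the alternatives and 3344 with a week left out. For most settings the share of all genes called is not given beside the count of members, so these counts have no background of their own. The product of diet and day had a median of 0.12 with the log2 75th percentile as a term, against 0.03. Over all alternatives the genes called ran from 0 to 6402 in the joint test (2974 in the reported fit), from 0 to 7091 in HF75 against HF20 (5597), from 0 to 4880 in HF20 against HFC (0) and from 2 to 1701 in the trend over days (304). The second Fasn probe, scan day as block, floors, classes and the left out array were chosen after seeing the data. The causes were not tested. With no replicate block Fasn also lost its call in HF75 against HF20 (adjusted p = 0.0663), and the other members' calls there and in the comparisons with HFC and LFC did not change. The saturated probes of Fasn and Thrsp limit what could be seen in bright arrays.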

Other observations

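On the 27 dim arrays alone, the genes closest to the mean profile of the members were Mlxipl (r = 0.91) and Elovl6 (r = 0.89), and Agpat2, named after its value was seen and an acyltransferase of triglyceride synthesis, was at 0.83. The array also lists Mod1, an older symbol of Me1, as a gene name of its own, with r = 0.86 on the dim arrays and 0.93 on all 38. These correlations have no test, and the arrays share diets and time points.

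Ucp1 was well above background on all 38 arrays. Its spot was saturated on 3 LFC arrays, 1 HFC array and 4 HF20 arrays, whose readings are lower bounds. On the unsaturated arrays it read 3.38 to 6.27 in LFC and 5.07 to 8.24 in HFC.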
